A study of Saccharomyces cerevisiae with 23 samples.

Results

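The genes described are 8 copper genes of budding yeast: the metallothionein genes CUP1-1 (YHR053C), CUP1-2 (YHR055C) and CRS5 (YOR031W), the regulator gene CUP2 (YGL166W), the copper transporter gene CTR1 (YPR124W), the metalloreductase genes FRE1 (YLR214W) and FRE7 (YOL152W), and the superoxide dismutase gene SOD1 (YJR104C). They were chosen by name, as 8 of the 6334 features of the deposited table, with their means and line values already known. Their values are therefore given as a description, with no p-value for their means or for their relations.

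Each sample was a mutation accumulation line of Saccharomyces cerevisiae, labelled MA line 19-1, 19-2 and so on up to 19-50, and is named below by its second number. All 23 lines and the reference strain YPS183 were unsynchronized log-phase cultures in YPD, the rich glucose medium, at 30 °C, with no treatment. The labels give no other genotype, and no column holds an ancestor of the lines. Each line was hybridised with Alexa Fluor 555 against YPS183 with 647 on a spotted-oligo array, the dyes were never exchanged, and 1 column stands for a line, so culture, array and line differences cannot be told apart.

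Copper is a cofactor of cytochrome oxidase, of the Cu/Zn superoxide dismutase and of the multicopper ferroxidase of iron uptake, and it is toxic in excess. Cells reduce copper at the surface with Fre1 and Fre7 and import it with Ctr1, and the regulator Mac1 activates these genes when copper is scarce. When copper is abundant it binds the regulator Cup2, also called Ace1, which activates CUP1, CRS5 and SOD1. CUP1 lies in a tandem repeat on chromosome VIII whose copy number is known to vary between yeast strains.

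A value is the log ratio of line and reference as deposited, read as log2. Which strain is the numerator is not stated, so a value is placed on the positive or the negative side with no direction between line and reference. The median of a column was -0.018 to 0.018, and its SD over features 0.245 to 0.583. YPS183 enters every ratio, so its own level is part of every mean. Of 253 pairs of columns, 28 correlated under -0.3 over all features, and lines 4 and 44 were the lowest (r = -0.64). Every column still correlated positively with the mean of the others (r = 0.04 in line 40 to 0.56 in line 15), and the labels give every line the same dye. Whether a single column carries a turned sign was not tested, and 1 dye orientation cannot show it. Turning the sign of all columns mirrors every value, order and mean below and leaves SDs and correlations as they are. Turning instead the 9 lines whose loading on the leading component opposed that of the other lines (2, 4, 6, 10, 19, 22, 25, 40 and 49) brought the CUP1 mean to -0.08. The component was taken from values centred on each feature's mean, so some lines oppose the others by construction. Turning them cancels part of any mean that the lines share, so a move of CUP1 towards 0 was built in. The cancelled part becomes spread between lines, which enters the correlations of the turned columns. Turning also aligns the lines along the component, so means away from 0 were built in for features that load on it. Calls with the 9 columns turned are given as a description. The loadings of lines 2 and 49 were only 0.033 and 0.043. Every lowest or highest value given below for one of these 9 lines therefore rests on the sign as deposited. The columns of lines 1 and 45 were the most alike of all pairs (r = 0.90) but held different values, with CTR1 at 0.20 in line 1 and 0.81 in line 45, so they were kept as separate lines.

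CUP1, the main copper-binding metallothionein of this yeast, lay on the negative side in nearly every line with the signs as deposited, and its average was negative in 13 of 23 lines with the 9 columns turned. The CUP1-1 spot ran from -2.65 in line 20 through a median of -0.55 to 0.18 in line 44, with a mean of -0.84 ± 0.81 (SD, n = 23). The CUP1-2 spot ran from -2.46 in line 20 through a median of -0.83 to 0.16 in line 8, with a mean of -0.87 ± 0.72 (SD, n = 23). CUP1-1 was negative in 20 lines and CUP1-2 in 22. In absolute size these means lay at percentiles 99.9 (CUP1-1) and 99.9 (CUP1-2) of all features, and their SDs at percentiles 97.1 and 95.6.

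The copies are identical genes, so their spots serve as a repeat within each array. The spots correlated at r = 0.95 over the 23 lines (Spearman rho = 0.93) and differed by a mean of 0.022 with an SD of 0.253. In 18 lines they lay within 0.25 of each other. The spots stood farthest apart in line 25, where CUP1-1 was 0.63 below CUP1-2 (-1.34 and -0.71), and in line 28, where it was 0.52 above (-0.55 and -1.07). The difference gives a single spot an SD of 0.179, which covers the spot alone and not the culture, the array or the dye. It also rests on the assumption that both spots measure the same transcripts, which was not tested.

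**Figure D1:**
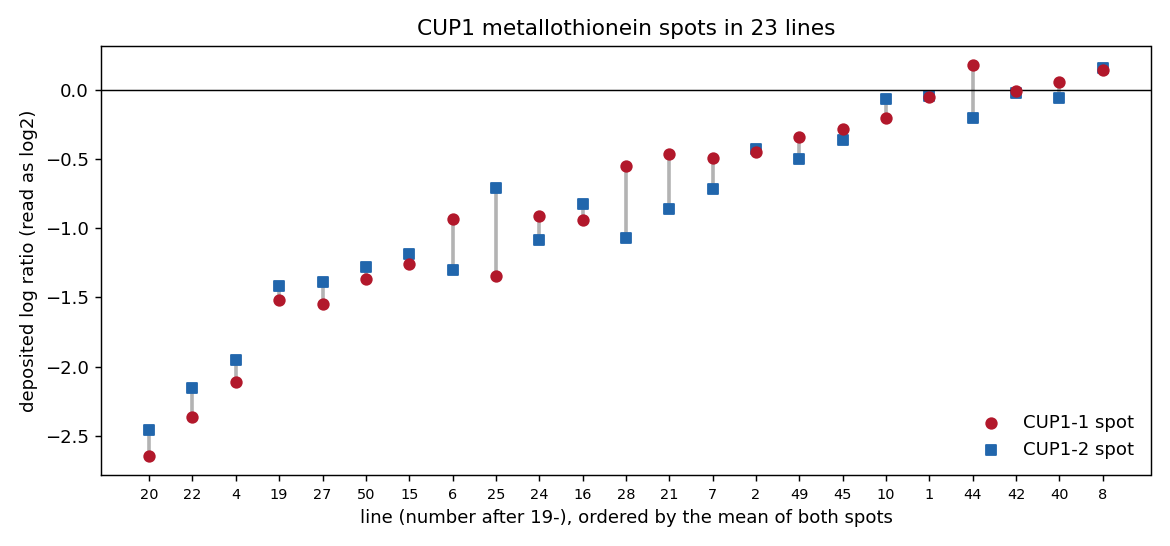
Deposited log ratio (vertical axis, read as log2) of the CUP1-1 spot (circles) and the CUP1-2 spot (squares) in each of 23 lines (horizontal axis, ordered by the mean of both spots), with a grey bar joining the spots of a line. The values run from line 20 at -2.65 and -2.46 to line 8 above 0, and the widest bars are those of lines 25 and 28.

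Averaged over both spots, CUP1 had a mean of -0.86 ± 0.75 (SD, n = 23) and ran from -2.55 to 0.15, a span of 2.70 or 6.52-fold if the scale is log2. As deposited, the lowest 3 were line 20 at -2.55, line 22 at -2.26 and line 4 at -2.03. With the 9 columns turned, line 20 stayed lowest, while lines 22 and 4 became the highest at 2.26 and 2.03. As deposited, the next were lines 19 and 27, both at -1.47, then line 50 at -1.32. At the other end 6 lines lay within 0.25 of 0: line 10 at -0.14, line 1 at -0.05, lines 44 and 42 at -0.02 and -0.01, line 40 at -0.00, and line 8 at 0.15. With the deposited signs line 8 alone had a CUP1 average above 0. Of the 22 gaps between neighbours in this order, only that between lines 4 and 19 (0.56) exceeded 0.357, which is 2 SD of a gap between lines as the spots give it. That limit holds the error of spots on 1 array and no spread between cultures, so it does not separate the lines as biological samples. Set against the spread of all lines, none of lines 20, 22 and 4 was called (limma adjusted p of 0.758 to 0.996 over both spots).

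None of the genes beside CUP1 on chromosome VIII was called with the signs as deposited. A gene was called where limma gave its mean over the lines, set against 0, an adjusted p under 0.05. That held for 9.22% of all features (3.99% positive and 5.23% negative), and for 0 of the 7 neighbours SMF2, COX6, CIC1, YHR054C, RSC30, CPR2 and MED6, of which 1 (COX6) had an unadjusted p under 0.05. With the 9 columns turned, 35.2% of all features were called, and CIC1 was among them (mean -0.30, limma adjusted p = 0.00100). Those columns were chosen from these same values, so that p is no valid test of CIC1. YHR054C, the reading frame that lies between the CUP1 copies in the reference annotation, had a mean of 0.02 ± 0.05 (SE, n = 23). It was -0.75 in line 20, its lowest value, but 0.31 in line 22 and -0.05 in line 4. RSC30, of which YHR054C is a partial copy, so that their spots may share signal, had a mean of 0.04 and values of -0.45, 0.02 and -0.12 in lines 20, 22 and 4.

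The other neighbours had means from -0.26 (COX6, a cytochrome oxidase subunit) to 0.07 (SMF2, a manganese transporter, and CPR2, a cyclophilin). CIC1, a gene of ribosome assembly, had a mean of 0.01, and MED6, a subunit of Mediator, had -0.01. Correlations of the 7 with the CUP1 average over the 23 lines lay between -0.26 (CIC1) and 0.36 (YHR054C). In line 8, with the highest CUP1 average as deposited, SMF2, COX6, RSC30 and MED6 had the lowest of their 23 values. The median of 282 other features of chromosome VIII was -0.22 in line 20 and lay between -0.05 and 0.04 in the other 22 lines. What part the chromosome-wide value of line 20 has in its CUP1 value was not tested.

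CRS5, the lesser metallothionein gene, had a mean near 0 but varied with CUP1 from line to line. It ran from -0.87 in line 4 through a median of -0.09 to 0.87 in line 45, with a mean of -0.04 ± 0.48 (SD, n = 23), and 9 lines were positive. Its next lowest value was -0.71, in line 22, and its next highest 0.78, in line 1. The reference annotation lists CRS5 as a pseudogene in the reference strain. Its state in these lines was not examined.

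Over the 23 lines CRS5 correlated with the CUP1 average at r = 0.79 (Spearman rho = 0.82). Among 6332 features other than the CUP1 spots, that was the highest r with CUP1. The median absolute r of those features with CUP1 was 0.22, and 5.54% had an absolute r of 0.5 or more. Without lines 20 and 22, which were farthest from the CUP1 median, r was 0.77, and leaving out 1 line at a time gave 0.76 to 0.81. With the leading component of the table removed, r was 0.83 and CRS5 kept rank 1 of 6332. The points share 1 reference, 1 printing and the column's normalization, so r describes these columns and no p is given. In the 6 lines where CRS5 exceeded 0.25, the lowest CUP1 average was -0.66. With the 9 columns turned, r was 0.68.

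SOD1, the cytosolic superoxide dismutase that carries copper and zinc, was highest in lines that were not the extremes of CRS5. It ran from -0.47 in line 25 through a median of 0.21 to 1.70 in line 8, with a mean of 0.29 ± 0.58 (SD, n = 23), and 14 lines were positive. Line 10 came next at 1.54, and the largest gap in the order, 0.57, separated line 10 from line 40 at 0.97. Lines 10 and 40 are among the 9, and with these turned they held the lowest SOD1 values (-1.54 and -0.97) while line 8 stayed highest. Lines 8 and 10 were also among the 6 lines whose CUP1 average lay nearest to 0.

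SOD1 correlated with the CUP1 average at r = 0.53 (rho = 0.55) and with CRS5 at r = 0.56 (rho = 0.63) over the 23 lines. Its r with CUP1 had rank 128 of 6332. The r of SOD1 and CUP1 was 0.55 without lines 20 and 22 and 0.53 with the leading component removed, but -0.03 with the sign of 9 columns turned as described above. CCS1, which encodes the chaperone that inserts copper into Sod1, correlated with SOD1 at r = 0.52.

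CUP2 encodes the copper-sensing activator of these genes, and its own ratio was centred on 0. It ran from -0.71 in line 25 through a median of -0.02 to 0.83 in line 44, with a mean of -0.01 ± 0.36 (SD, n = 23), and 10 lines were positive. Its r was 0.29 with CUP1, 0.47 with CRS5 and 0.16 with SOD1. In the lines with the lowest CUP1 average, CUP2 was 0.03 (line 20), -0.18 (line 22) and -0.16 (line 4). At the other end, as deposited, line 44 held the highest CUP2, with CUP1-1 at 0.18, CUP1-2 at -0.21 and a CUP1 average of -0.02. Line 40 held the second highest CUP2 (0.68) and the second highest CUP1 average. Other lines at that end went the other way. In line 8, with the highest CUP1 average (0.15), CUP2 was -0.35. In line 10, with a CUP1 average of -0.14, CUP2 was -0.48, its second lowest value.

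**Figure D2:**
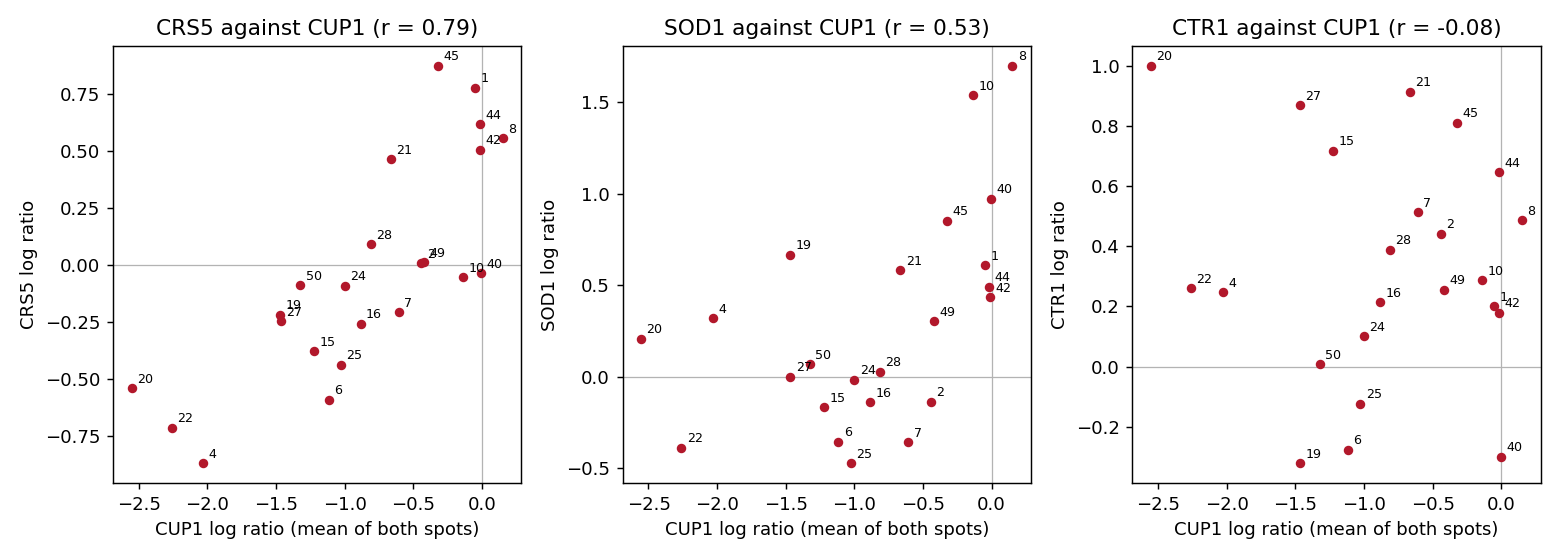
Log ratio of CRS5 (left), SOD1 (middle) and CTR1 (right) on the vertical axis against the CUP1 average of both spots on the horizontal axis, 1 point per line with its line number. CRS5 rises with CUP1 (r = 0.79), SOD1 does so less closely (r = 0.53) with lines 8 and 10 on top, and CTR1 shows no trend with CUP1 (r = -0.08).

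With the signs as deposited, the uptake genes lay nearer to 0 than CUP1 and varied less. CTR1, the high-affinity copper transporter, ran from -0.32 in line 19 through a median of 0.26 to 1.00 in line 20, with a mean of 0.33 ± 0.38 (SD, n = 23). It was positive in 19 lines and negative in 4, and line 21 (0.91) came next to line 20. No gap between neighbours in its order exceeded 0.153, so no line stood apart. In absolute size its mean lay at percentile 96.1 of all features.

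FRE1, the main surface reductase for copper and iron, ran from -0.41 in line 19 through a median of 0.13 to 0.72 in line 10, with a mean of 0.13 ± 0.26 (SD, n = 23) and 17 lines positive. FRE7, a reductase gene induced by copper scarcity, ran from -0.42 in line 19 through a median of 0.00 to 0.50 in line 20, with a mean of 0.03 ± 0.24 (SD, n = 23) and 12 lines positive. The SD of FRE7 lay at percentile 42.9 of all features and that of FRE1 at 51.7, so the FRE genes varied between lines about as much as a typical feature. Over the 8 copper genes, with both CUP1 spots counted, the median SD was 0.430, beside 0.256 for all features. With CUP1 counted once as the average of its spots, the middle SD was that of CTR1 (0.385).

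**Figure D3:**
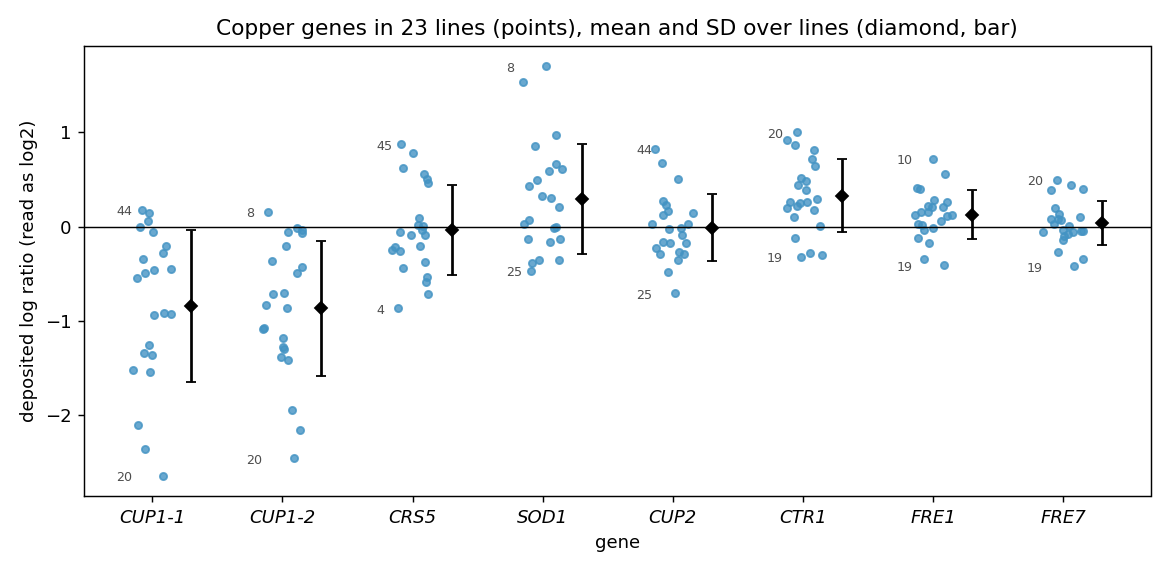
Deposited log ratio (vertical axis, read as log2) of the 8 copper genes, 1 point per line, with the mean and SD over 23 lines as a diamond and bar, and the numbers of the lowest and highest lines. Both CUP1 spots reach below -2 while CRS5, CUP2, CTR1, FRE1 and FRE7 stay within 1 of 0, and SOD1 reaches 1.70 in line 8.

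The Mac1 targets CTR1, FRE1 and FRE7 had low positive correlations with each other. Over the 23 lines r was 0.36 for CTR1 and FRE7, 0.31 for FRE1 and FRE7 and 0.23 for CTR1 and FRE1, where the 3 pairs among CUP1, CRS5 and SOD1 had 0.53 to 0.79. The difference between these sets of correlations was not tested, and the sets overlapped with the 9 columns turned, when the Mac1 pairs had 0.28 to 0.43 and the Cup2 pairs -0.03 to 0.68. The Mac1 pairs were lower without line 19, when r was 0.079 for CTR1 and FRE1, 0.152 for FRE1 and FRE7 and 0.239 for CTR1 and FRE7. Without line 25, CTR1 and FRE1 had 0.148, and without line 20, CTR1 and FRE7 had 0.231. The 9 pairs of a Cup2 target with a Mac1 target lay between -0.08 and 0.26. With the leading component removed, the Mac1 pairs had 0.32 to 0.36 and the mixed pairs -0.41 to 0.17, the lowest being CUP1 and CTR1.

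**Figure D4:**
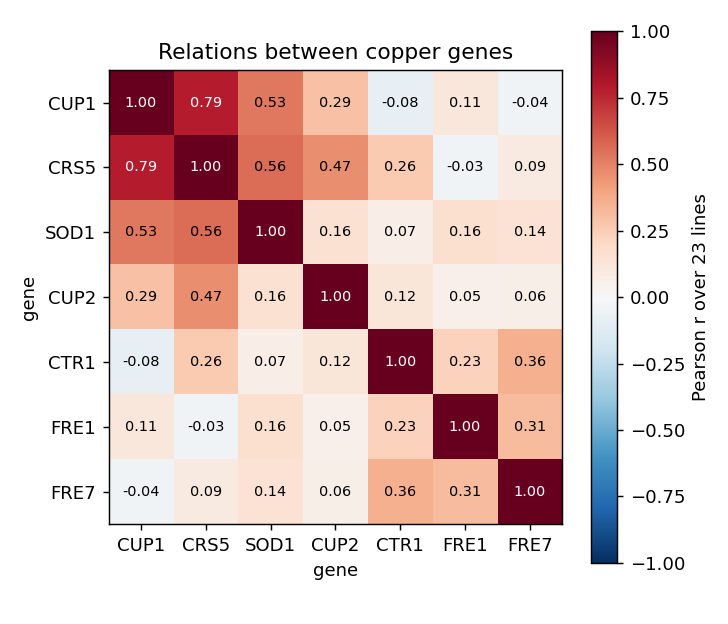
Pearson r over 23 lines (colour and printed value) between CUP1 (average of both spots), CRS5, SOD1, CUP2, CTR1, FRE1 and FRE7 on both axes. The square of CUP1, CRS5 and SOD1 holds values of 0.53 to 0.79, and that of CTR1, FRE1 and FRE7 holds 0.23 to 0.36.

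As deposited, line 19 had the lowest value of all lines in CTR1 (-0.32), FRE1 (-0.41) and FRE7 (-0.42). Turned with the other 8 lines, it had 0.32, 0.41 and 0.42, and the lowest lines were 2 for CTR1, 10 for FRE1 and 4 for FRE7. It was also the lowest line for 7.09% of all features. The remaining 4 genes listed with Mac1 were negative there as well. MAC1 itself was -0.37, the copper transporter gene CTR3 -0.35, IRC7 -0.43, and REE1 -0.33, the lowest of its 23 values. With the deposited signs all 3 uptake genes were negative in lines 19 and 25 and in no other line, and all 3 were positive in 10 lines. Line 20 had the highest CTR1 and FRE7 beside the lowest CUP1, and its FRE1 was 0.28.

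With the deposited signs none of the 4 other genes of the Mac1 list was called by limma over the lines, against 9.22% of all features. Of the 4, 1 (CTR3) had an unadjusted p under 0.05. With the 9 columns turned, IRC7 was called (mean -0.27, limma adjusted p = 0.0247), where 35.2% of all features were called. As for CIC1, that p is no valid test. MAC1 ran from -0.93 in line 10 to 0.46 in line 40 with a mean of 0.03 ± 0.06 (SE, n = 23), and its r with CTR1 was 0.04. CTR3, the second high-affinity transporter gene, which a transposon silences in many laboratory strains, had a mean of 0.26 ± 0.11 (limma adjusted p = 0.138) and ran from -0.93 in line 6 to 1.27 in line 8. Its r with CTR1 was 0.57. IRC7, a cysteine desulfhydrase gene, had a mean of -0.17 and ran from -1.01 (lines 20, 21 and 45) to 1.08 in line 22, with r = -0.41 to CTR1. REE1 had a mean of 0.04 and an SD of 0.186.

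Single lines were also tested against the other 22 with limma, adjusted over all 145682 pairs of a feature and a line. Of the 184 pairs of a copper gene and a line, 0 were called at an adjusted p under 0.05 with a difference of 1 or more, 14 had an unadjusted p under 0.05, and the lowest adjusted p was 0.615, for SOD1 in line 8 (1.47 above the mean of the other lines). The 184 pairs count both CUP1 spots, though the copies are identical. Over all pairs, 0.068% were called. For line 20 the difference from the other lines was -1.88 in CUP1-1 and -1.67 in CUP1-2 (adjusted p = 0.758 for each). The lowest values of FRE1, FRE7 and CTR1, all in line 19, differed by -0.56, -0.48 and -0.68 (adjusted p = 0.880, 0.928 and 0.966). This test sets 1 column against the spread of all lines and cannot use the spots' own error, so it resolved no line in these genes.

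Genes that handle copper after its uptake were called on both sides of 0. Of 14 genes of copper distribution, 3 had a mean that differed from 0 by limma, 1 positive and 2 negative, against 9.22% of all features called. PIC2, a mitochondrial copper and phosphate carrier, averaged -0.47 ± 0.16 (SE, n = 23, limma adjusted p = 0.0427), from -2.36 in line 6 to 1.43 in line 21. CCS1, the chaperone for Sod1, had -0.11 ± 0.03 (adjusted p = 0.0333) and was positive in 5 lines. PCA1, a P-type metal pump, had 0.16 ± 0.04 (adjusted p = 0.0151) and was positive in 18 lines. The median mean of the 14 genes was 0.04 and that of all features -0.00.

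The PIC2 and CCS1 calls were lost when lines 1 and 45 were averaged (adjusted p = 0.0521 and 0.0533) and when single lines were left out (14 of 23 lines for PIC2, 10 of 23 for CCS1). Turning the sign of 9 columns moved PIC2 to 0.28 and ended its call, and it also ended the calls of CCS1 (adjusted p = 0.111) and of FET3, described next (0.0509). With a variance trend in limma, 0 of the 37 genes outside the 8 were called, against 6.80% of all features. Of the 37, 11 had an unadjusted p under 0.05. That trend was fitted on each feature's mean absolute log ratio and not on intensity, so its covariate came from the tested values. Without the trend, 2 of 12 genes of metal reduction and iron uptake were called, both negative, against 9.22% of all features (5.23% negative). They were FET3, the copper-dependent ferroxidase that is loaded with copper in the secretory pathway (-0.43 ± 0.13, SE, n = 23, adjusted p = 0.0220), and FTR1, the iron permease that works with it (-0.39 ± 0.11, adjusted p = 0.0192). FET3 and FTR1 correlated with each other at r = 0.86, and with the CUP1 average at -0.48 and -0.31. FRE1, which also reduces iron, had r = -0.06 with FET3 and 0.25 with FTR1. The remaining reductase genes, FRE2 to FRE6 and FRE8, had means between -0.14 and 0.03, and none was called.

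**Figure D5:**
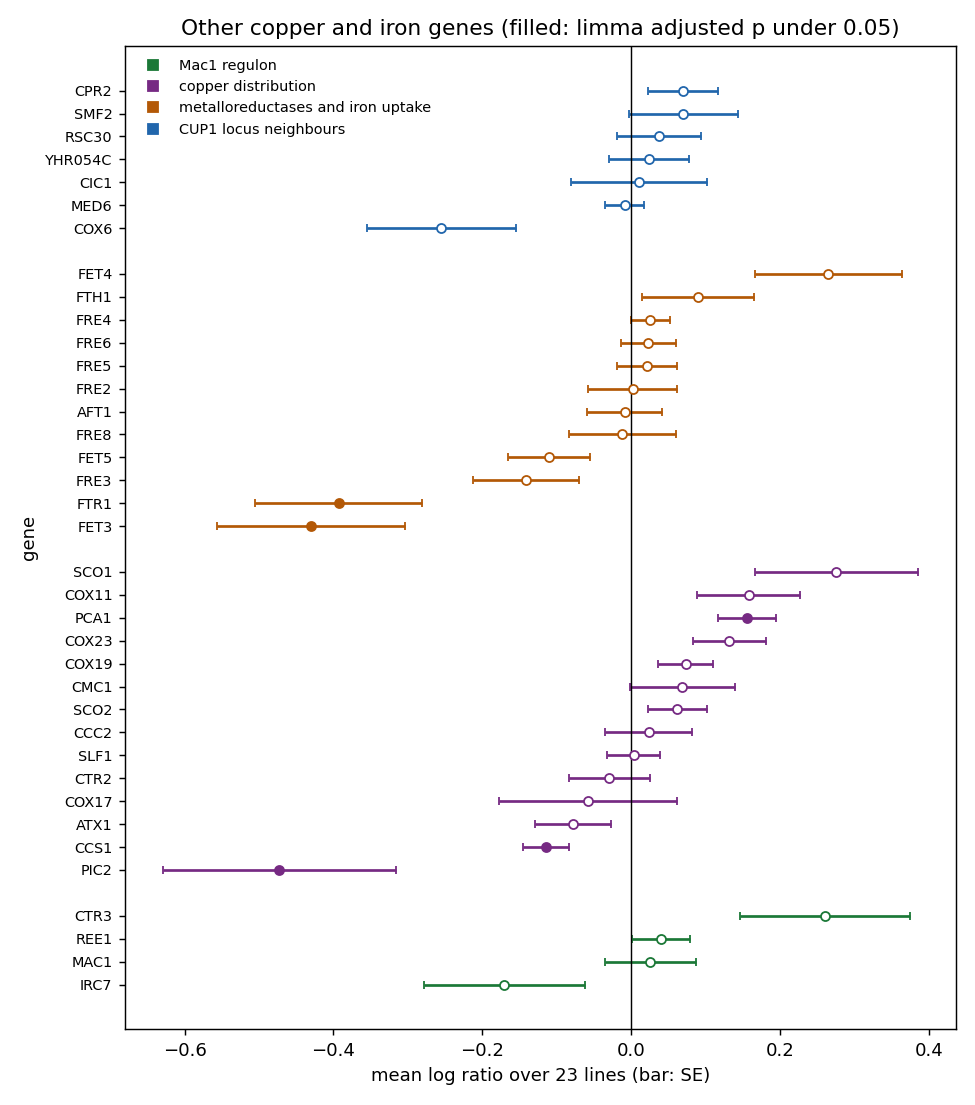
Mean log ratio over 23 lines (horizontal axis, bar SE) of the 37 genes of the 4 other lists (vertical axis, coloured by list), with filled points for the 5 genes called by limma at an adjusted p under 0.05. PIC2, FET3, FTR1 and CCS1 lie on the negative side and PCA1 on the positive side, and no gene of the Mac1 list or of the CUP1 neighbours is filled, all with the signs as deposited.

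Apart from the copper genes, the features with current gene names that were most like each one were found by Pearson r over the 23 lines, among 5833 candidates. For CUP1-1 they were COX15, an enzyme of haem A synthesis (r = 0.78), TVS1 (0.74) and MRP10, a mitochondrial ribosomal protein gene (0.71). For CUP1-2 they were MRPL33, another of that class (0.72), TVS1 (0.71) and MRP10 (0.71). For CRS5 they were RTC3 (0.90), the glutaredoxin gene GRX1 (0.87) and the proteinase inhibitor gene PAI3 (0.87), all above its r with CUP1. The leading component, which held 44.0% of the variance of the table, accounted for 55.9% of the variance of CRS5, 13.5% of that of the CUP1 average and 0.723% of that of SOD1.

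SOD1 had the closest companions: the thioredoxin gene TRX2 (r = 0.93), CHP1 (0.92) and TMH11 (0.91). CUP2 was most like RIM20 (0.81), the cell wall kinase gene MKK2 (0.79) and NVJ1 of the nucleus-vacuole junction (0.78). For CTR1 they were FMP27 (0.81), DNM1 of mitochondrial fission (0.79) and RAD28 (0.77). FRE1 was most like the histidine permease gene HIP1 (0.72), the transposon frame YGR027W-B (0.70) and the sterol synthesis gene HMG1 (0.68). FRE7 was most like PRM5 (0.71), ECL1 (0.70) and GYP1 (0.65), and its best r was the lowest of the 8.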

How the data were processed

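Per the labels, RNA of each line (15 μg) was made into cDNA and hybridised with that of YPS183. The authors deposited 1 table of normalized log ratios, read here as log2. The base, the numerator, the background correction, the normalization method, spot filtering and whether a column averages replicates are not given in the sources read for this work. Intensities were not analysed here, so signal over background is unknown, and the number of arrays limits the precision.

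Members and lists were chosen with earlier results of these data known. Values were used as deposited, with no filter. Means of features outside the members were tested with limma 3.58.1 (R 4.3.3; intercept alone, eBayes, two-sided, Benjamini-Hochberg over 6334 features, threshold 0.05), and single lines by a term for 1 line. Both fits were tested on simulated data. Correlations, SDs and ranks came from scipy 1.17.1, numpy 2.4.6 and pandas 2.3.3 under Python 3.11.15, and the plots from matplotlib 3.10.9.

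Features were named through the R64 reference table (5841 matched, 493 not). No coordinates are given, since the files name no build, and no sequences were used here. Named genes were the 8 members, all genes of the Mac1 list and the CUP1 neighbours, the called genes of the other lists (up to 6 with the largest absolute mean in each), the 3 features most like each member, and each member's lowest and highest line. Other named values were chosen after they were seen. Alternatives were 2 scalings, array weights, a variance trend, single lines left out, lines 1 and 45 averaged, the leading component removed, medians in place of means, the median absolute deviation in place of the SD, and signs turned. The variance trend used the mean absolute log ratio of a feature as its covariate, in place of an average intensity.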

Additional observations from a re-analysis of the deposited data

How the results depend on the processing

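The count of 5 called genes among the 37 outside the members (13.5%, where 9.22% of all features were called) was the result that moved most. It was 9 with array weights (24.3% of the 37, where 20.5% of all features were called), 3 with lines 1 and 45 averaged, and 0 with a variance trend (11 at an unadjusted p under 0.05, as with limma without the trend, and 6.80% of all features called). It ranged from 3 to 6 when 1 line was left out, with 3 without line 1, 7, 15, 28 or 45. The share of all features called is not given for lines left out or averaged. Whether the list moved there or the whole table did cannot be told. With the sign turned in 9 lines, chosen after the data were seen, the count was 8 (21.6%, where 35.2% of all features were called), of which 2 were shared with the 5, and the CUP1 mean moved from -0.86 to -0.0817 and the r of CUP1 and SOD1 from 0.53 to -0.03. Turning those 9 lines draws a mean that the lines share towards 0 by construction. It also makes that mean into spread between lines, which enters r (SD of the CUP1 average 1.15, against 0.75 as deposited). Features that load on the leading component are given means away from 0 by construction as well. The cause of the other moves was not tested.

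Leaving out 1 line gave a CUP1 mean of -0.90 to -0.78, an r of CUP1 and CRS5 of 0.76 to 0.81, a median SD of the 8 genes of 0.411 to 0.440, and 0 called departures (limma) throughout. The r of CUP1 and CRS5 lay between 0.68 (signs turned) and 0.83 (leading component removed) over all alternatives. No line correlated under -0.3 with the mean of the others, so the planned turning of such lines gave no value. No paired analysis was possible because the lines form a single group.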

Other observations

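Line 8 held the highest values of several genes that bring copper to cytochrome oxidase, a pattern chosen after the values were seen. Of the 14 genes of copper distribution, 5 had their highest value of the 23 lines there, and line 8 was the highest line for 7.28% of all features. SCO1, which delivers copper to the oxidase, was 1.52, the mitochondrial copper chaperone gene COX17 1.16, CMC1 0.94, COX11 0.89 and COX23 0.61. Of the same list, SCO2 (0.33), COX19 (0.01) and the carrier gene PIC2 (-0.15) did not have their highest value in that line. SOD1 (1.70) and CTR3 (1.27) were highest in line 8 too, as was, with the deposited signs, the CUP1 average (0.15). COX6, a subunit of the oxidase that binds no copper, had its lowest value there (-1.45). So did SMF2 (-0.82), RSC30 (-0.46) and MED6 (-0.25), which lie near COX6 and CUP1 on chromosome VIII. The other neighbours YHR054C, CIC1 and CPR2 were -0.39, 0.49 and -0.09 in line 8. Line 8 was the lowest line for 6.68% of all features.

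Line 6 had the lowest value of 4 of the 14 genes, among them PIC2 (-2.36) and COX17 (-1.63), and was the lowest line for 7.83% of all features. Line 6 is among the 9 lines turned in the alternative above, where these values change sign and its COX17 exceeds that of line 8. CMC1 correlated with SOD1 at r = 0.81 and COX17 with SOD1 at 0.56 over the 23 lines.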
